A study of Mus musculus with 6 samples.

Results

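The genes described here encode the mevalonate pathway, the synthesis of cholesterol from it, the transcriptional response to sterols and the enzymes that attach isoprenoid lipids to proteins. They are the rows of the deposited gene count table whose symbol equals 1 of 35 listed symbols, and all 35 were found among 22601 genes. RNAseq, which counts sequenced RNA fragments per gene, covered 3 wild-type (WT) and 3 Slc37a2 KO mouse libraries, to ask which transcripts differ in osteoclasts that lack Slc37a2, a sugar phosphate transporter family member. Per the sample labels, both groups were bone marrow macrophages (BMMs) kept in M-CSF and differentiated into osteoclasts over 5 days with 10 ng/ml RANKL, the cytokine that drives osteoclast formation, and 2 ng/ml M-CSF. The RNAseq section of the study's methods describes whole-bone RNA from femurs and tibias instead, while the study's results describe RNAseq of osteoclasts. Each count column is headed by the genotype and number of an animal, with F and 11 weeks. Slc37a2 KO mice were homozygous for a tm2a gene-trap allele made from 1 embryonic stem cell clone, on the C57BL/6N background that WT littermates shared. The allele is carried in every cell type and throughout development, and pooling of animals is not described.

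Mevalonate, built from acetyl-CoA, is the source of isoprenoid lipids. Farnesyl diphosphate is either joined into squalene on the way to cholesterol, or it and geranylgeranyl diphosphate are attached to small GTPases, which need these anchors to work at membranes. Osteoclasts are known for their dependence on this route, since nitrogen-containing bisphosphonates block farnesyl diphosphate synthase (Fdps) in these cells. Low sterol levels release SREBP transcription factors, which raise the synthesis genes, whereas oxysterols bind the LXR receptors, which raise the exporters Abca1 and Abcg1.

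Library totals lay between 27552183 and 42522292 counts, and every member had at least 134 counts in every library. Levels are given as scaled CPM, the usual counts relative to library size with the size adjusted by TMM factors. Throughout, WT values are in the order K090, L080 and L082 and KO values in the order K089, L078 and L081, named by animal. Slc37a2 counts were 75789, 60889 and 76013 in WT and 1233, 1446 and 1043 in KO. Its level was 2149 ± 292 CPM in WT and 38.1 ± 6.66 CPM in KO (SD, n = 3), and the genotype labels and the targeted gene did not contradict each other. The 10 osteoclast markers, among them Acp5, Ctsk and Mmp9, were all present, with a summed level of 38320 to 57772 CPM in WT and 41826 to 75594 CPM in KO. Of 3 adipocyte markers in the table, Adipoq and Cidec were each at 0 in 5 of 6 libraries, while Fabp4, which macrophages also express, was at 1.34 to 9.40 CPM. The red cell transcripts summed to at most 0.0707 CPM, the B lymphoid ones to at most 0.269 CPM and the neutrophil ones to at most 1.22 CPM. Of the 9 stromal and osteoblast markers, Bglap, a late osteoblast transcript, was at 0 in 4 of 6 libraries. The others were found in all 6, among them Runx2 at 10.6 to 16.5 CPM, Alpl at 2.61 to 7.47 CPM and Sp7 at 1.48 to 2.69 CPM. Col1a1, a collagen transcript that stromal cells make, was at 295 to 862 CPM.

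No member passed edgeR's quasi-likelihood test between the genotypes. Adjusted p-values (Benjamini-Hochberg over 13483 genes tested) ran from 0.969 to 0.998 across the 35 members, and 0 members were called at 0.05. Slc37a2 itself was the single gene called, which is 0.00742% of the genes tested. At an unadjusted p below 0.05 the count was 0 of 35 members, beside 96 genes or 0.712% of all genes tested, and the lowest member p was 0.128. DESeq2's Wald test and edgeR's likelihood ratio test also called 0 members. The fitted differences were small in both directions. Of the 35 members, 19 had a higher and 16 a lower fitted level in KO, with a median log2 fold change of 0.01, beside −0.02 over all genes tested. Their median absolute log2 fold change was 0.06, beside 0.08 for the 8970 genes within the members' range of mean CPM and 0.10 over all genes tested.

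The size that these data could still hold was limited for most members. The 95% confidence interval of the log2 fold change lay inside −0.5 to 0.5 for 30 of 35 members, where 55.4% of all genes tested and 75.7% of the 8970 genes within the members' range of mean CPM had such an interval. The 5 members with wider intervals were Tm7sf2, Insig2, Abca1, Abcg1 and Nr1h3. Against the limit of 1.5 that the study used for the log2 fold change, the interval stayed inside for 33 of 35 members, and the exceptions were Abca1 and Nr1h3. The genotypes overlapped in all members but 1, Fntb, while 581 genes (4.31% of those tested) had all KO libraries on the same side of all WT libraries. The smallest two-sided p of an exact permutation test over 3 and 3 libraries is 0.1, so single members are read from the model fitted across all genes.

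**Figure D1:**
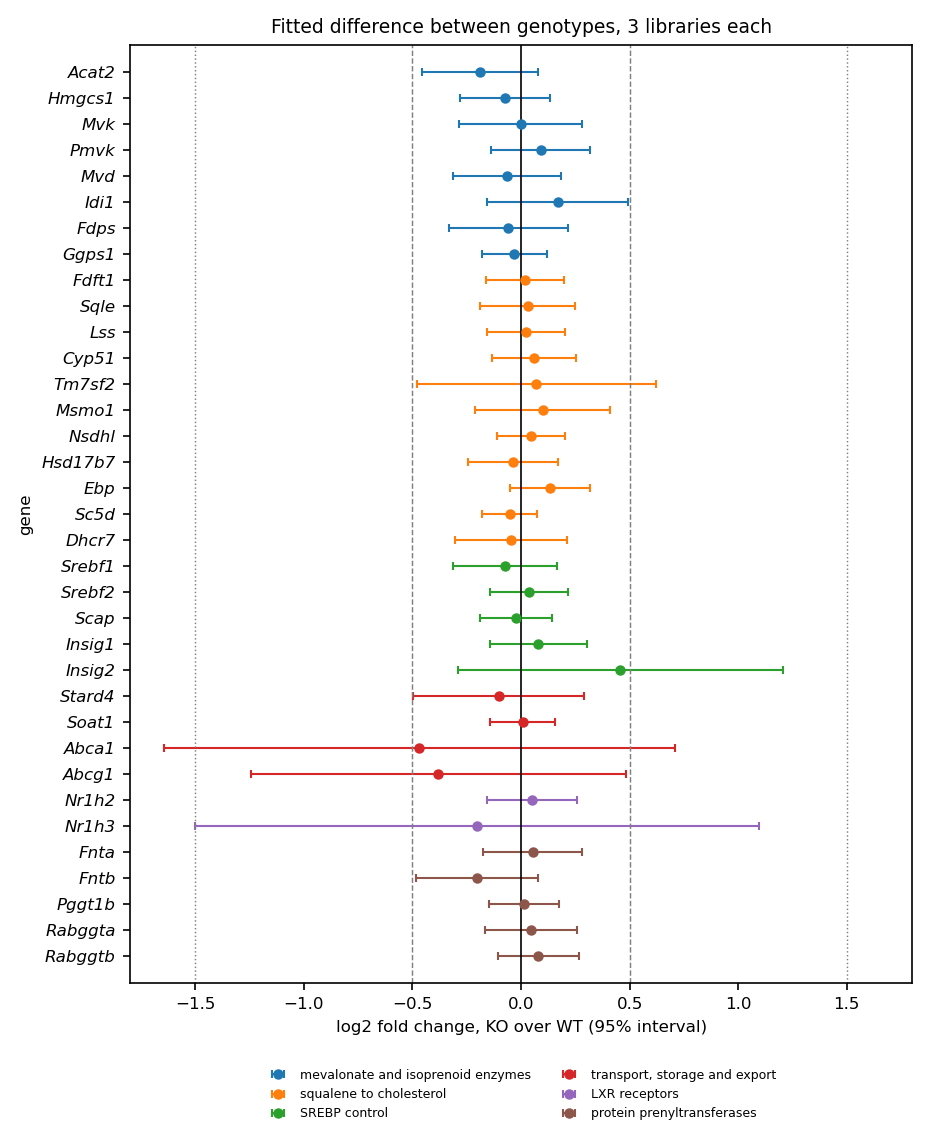
Fitted log2 fold change of each of the 35 genes, KO over WT (points, horizontal axis), with its 95% confidence interval (bars); the vertical axis lists the genes, coloured by role, and grey lines mark −0.5 and 0.5 (dashed) and −1.5 and 1.5 (dotted). All 35 intervals include 0, and 4 genes (Insig2, Abca1, Abcg1 and Nr1h3) have visibly wider ones than the rest.

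The mevalonate and isoprenoid enzymes had a median range over libraries of 0.31 on the log2 scale, as had the 8970 genes within the members' range of mean CPM (0.31). Idi1, an isomerase, had the widest range of these enzymes, from 22.5 CPM in L078 to 31.9 CPM in L081. The 8 members of this group had a median log2 fold change of −0.04, 2 higher and 6 lower in KO, and none reached an unadjusted p below 0.05. Acat2, a cytosolic acetyl-CoA acetyltransferase that supplies acetoacetyl-CoA, had the lowest p of the 8. It stood at 24.6, 24.3 and 22.4 CPM in WT and at 17.9, 22.9 and 21.7 CPM in KO. KO library L078 lay above WT library L082, so the groups overlapped, with a log2 fold change of −0.19 (standard error 0.11, 95% interval −0.46 to 0.08, unadjusted p = 0.133 in edgeR's quasi-likelihood test).

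Fdps, on chromosome 3 at 89093588 to 89101959 (minus strand, GRCm38), makes farnesyl diphosphate and is the bisphosphonate target. Its level was 115, 118 and 92.4 CPM in WT and 94.6, 108 and 109 CPM in KO. The lowest and the highest library were both WT, and the KO values fell between them. The log2 fold change was −0.06 (standard error 0.11, 95% interval −0.33 to 0.21). In GENCODE M21, 26.7% of the exon bases of Fdps are shared with Gm43738 on the same strand, and how reads in shared exons were counted is not given in the sources used here. Ggps1, which makes geranylgeranyl diphosphate for the other prenyl anchor, ranged from 27.1 to 29.0 CPM over the 6 libraries. That was the narrowest range of the 35 members, 1.07-fold from lowest to highest.

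Hmgcs1, the HMG-CoA synthase early in the pathway, stood at 324, 277 and 286 CPM in WT and at 285, 264 and 294 CPM in KO. The highest library was WT and the lowest KO, with the others mixed, and the interval of its log2 fold change ran from −0.28 to 0.13. The mouse promoter of Hmgcs1 is shown because it carried the sterol response element core searched here, the letters TCACNCCAC on either strand in the bases around its annotated start. The stretch below is chr13:119690174-119690262 (GRCm38.p6, plus strand, from RefSeq), positions −177 to −89 from the start, with the match in capitals.
Hmgcs1: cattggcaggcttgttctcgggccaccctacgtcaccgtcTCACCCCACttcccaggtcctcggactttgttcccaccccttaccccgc
RefSeq promoter windows, from 250 bases before to 50 after a start, were matched for 28 of 35 members by symbol. Fnta, Fdft1, Fdps, Abcg1, Pggt1b, Sqle and Stard4 were not matched. The core was in 1 of 40 member windows, that of Hmgcs1, and in 1.24% of all 32851 windows. CCAAT, the core bound by NF-Y, a usual partner of SREBP, was in the windows of 21 of the 28 members (22 of 40 windows) and in 37.4% of all windows.

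The enzymes from squalene to cholesterol had a median range over libraries of 0.25 on the log2 scale. Of 11 members, 8 had a higher and 3 a lower fitted level in KO, with a median log2 fold change of 0.03, and none reached an unadjusted p below 0.05. Ebp, which shifts a sterol ring double bond late in the pathway, had the lowest p of the 11 (unadjusted p = 0.129 in edgeR's quasi-likelihood test). It stood at 44.1, 40.3 and 41.7 CPM in WT and at 47.7, 42.2 and 48.5 CPM in KO. L078 was the KO library that overlapped WT, and the log2 fold change was 0.13 (standard error 0.08, 95% interval −0.05 to 0.32).

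The early steps gave no larger difference. Fdft1 (squalene synthase), Sqle (squalene epoxidase), Lss (lanosterol synthase) and Cyp51 (lanosterol demethylase) had log2 fold changes of 0.02, 0.03, 0.02 and 0.06. In Fdft1, 18.3% of the exon bases lie opposite exons of Ctsb, and whether counting used strand is not given in the sources used here. Msmo1, which acts in sterol demethylation, stood at 211 ± 12.0 CPM in WT and 226 ± 36.8 CPM in KO (SD, n = 3), with a wider spread among KO than among WT libraries. Sc5d (sterol desaturase) stayed between 53.1 and 57.6 CPM in all libraries. Tm7sf2, a sterol reductase, was the exception in precision. It had the lowest level per length of the 35 and ranged from 4.30 to 7.84 CPM, both within WT, and it shares 12.1% of its exon bases with Vps51 on the same strand.

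Over the 19 synthesis enzymes together, the highest library was 1.07 to 1.82 times the lowest, with a median of 1.22. For 18 of them this ratio was under 1.5, Tm7sf2 being the exception. The same 18 had an interval inside −0.5 to 0.5. Across all members the median range over the 6 libraries was 0.29 on the log2 scale, beside 0.31 for the 8970 genes of similar mean CPM and 0.42 over all genes tested, so the list's median lay close to that of genes at its level.

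**Figure D2:**
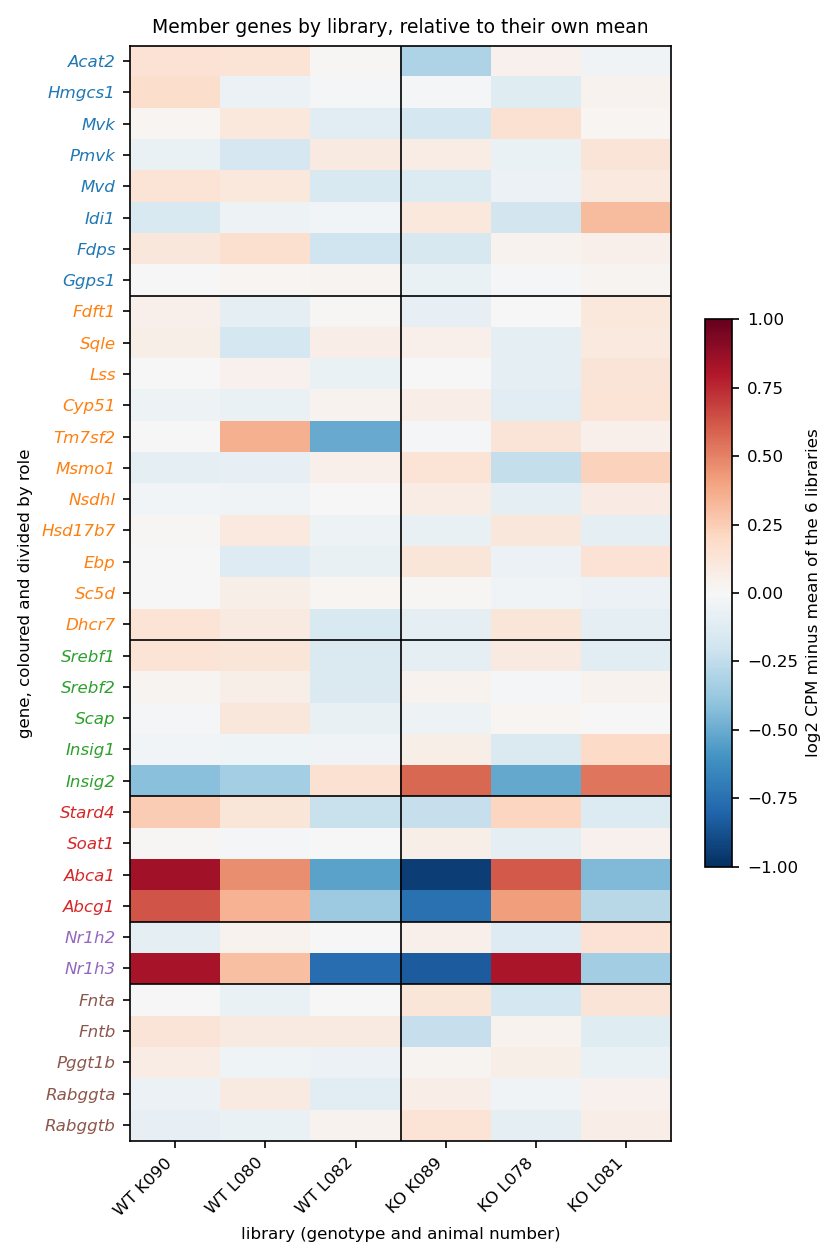
Log2 CPM of each of the 35 genes in each library minus the gene's mean over the 6 libraries (colour scale from −1 to 1), with the 3 WT and 3 KO libraries as columns and the genes, divided by role, as rows. Most synthesis enzymes in the upper rows stay pale, Tm7sf2 being low in L082 and high in L080, Acat2 low in K089 and Idi1 high in L081. Abca1, Abcg1 and Nr1h3 are high in K090, L080 and L078 and low in L082, K089 and L081. Insig2 shows the opposite colours.

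Among the genes of SREBP control, 1 varied and 4 did not stand apart from the enzymes. Srebf2, the SREBP that mainly drives cholesterol genes, stood at 285, 290.2 and 252 CPM in WT and at 286, 276 and 287 CPM in KO. The KO values sat within the WT range, with a log2 fold change of 0.04 (95% interval −0.14 to 0.22). Srebf1, whose products mainly drive fatty acid genes, stood at 115, 113 and 94.5 CPM in WT and at 97.5, 111 and 97.1 CPM in KO. Its log2 fold change was −0.08 (95% interval −0.32 to 0.16), and here again L078 was the KO library nearest to the upper WT values. Scap, the escort that carries SREBPs to the Golgi, and Insig1, which holds SCAP in the endoplasmic reticulum, had log2 fold changes of −0.02 and 0.08.

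Insig2, the second retention factor, had the largest positive difference of the 35 members. It lies on chromosome 1 at 121304353 to 121332589 (minus strand, GRCm38). Its level was 73.7, 77.8 and 109 CPM in WT and 146, 69.2 and 143 CPM in KO. KO libraries K089 and L081 were above all WT libraries, but KO library L078 was below all of them. The log2 fold change was 0.46 (standard error 0.31, unadjusted p = 0.187, and 0.969 after Benjamini-Hochberg adjustment of edgeR's quasi-likelihood test), and it was 0.73 without L078. Its 95% interval ran from 0.818 to 2.30 times the WT level.

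The widest spread of the list was in the LXR arm, between libraries of the same genotype. Abca1, which exports cholesterol to lipid-poor apolipoproteins, lies on chromosome 4 at 53030787 to 53159895 (minus strand, GRCm38). It stood at 186, 143 and 71.5 CPM in WT and at 54.2, 159 and 76.4 CPM in KO. The highest library was 3.44 times the lowest, and each genotype held both high and low libraries. The log2 fold change was −0.47 (standard error 0.49, 95% interval −1.65 to 0.71), so a fall to 0.320 or a rise to 1.63 times the WT level both lay within the error. Without WT library K090 it was −0.15, and without KO library L078 it was −1.04.

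Abcg1, which exports cholesterol to mature lipoprotein particles, followed the same library order with 182, 149 and 91.4 CPM in WT and 70.1, 157 and 96.9 CPM in KO. Its log2 fold change was −0.38 (standard error 0.36, 95% interval −1.24 to 0.48), and it was −0.13 without KO library K089 and −0.76 without L078. Nr1h3 encodes LXRα, an LXR abundant in macrophages. It stood at 25.2, 17.5 and 8.35 CPM in WT and at 7.96, 25.1 and 11.1 CPM in KO, a 3.16-fold spread. The KO library L078 matched the highest WT library, and the log2 fold change of −0.20 (95% interval from 0.353 to 2.14 times the WT level) became 0.20 without WT library K090 and −0.84 without L078. Nr1h2, which encodes the widely expressed LXRβ, stayed at 59.5, 65.2 and 63.4 CPM in WT and 66.0, 58.1 and 70.5 CPM in KO, with a log2 fold change of 0.05 (95% interval −0.16 to 0.26).

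**Figure D3:**
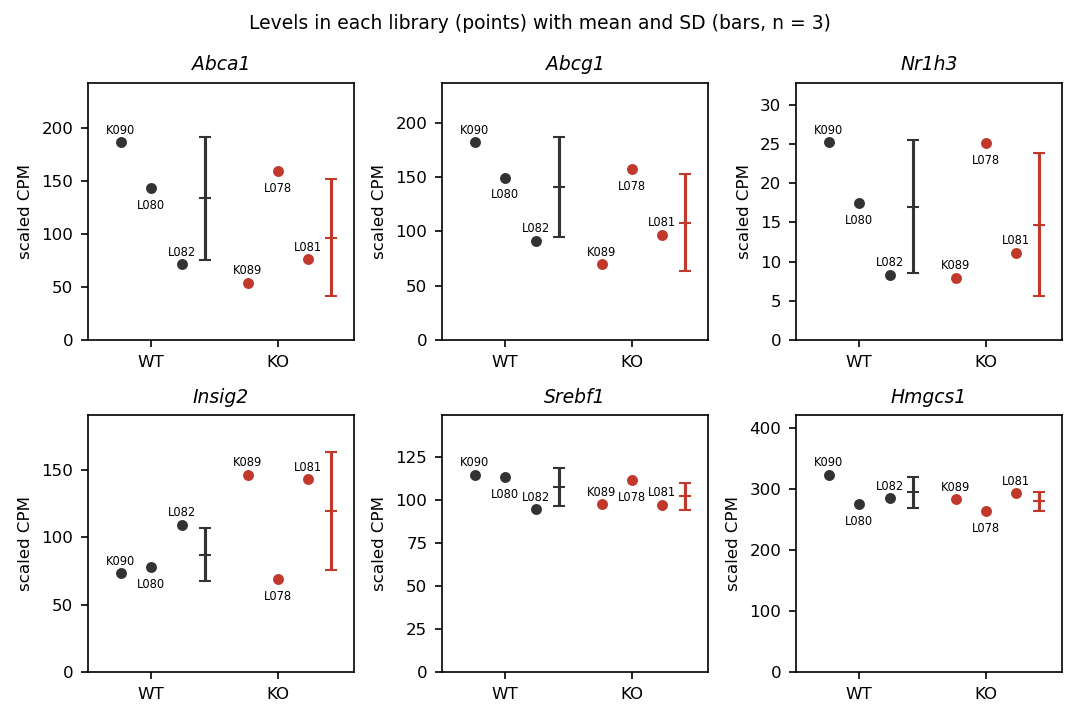
Scaled CPM (linear vertical axes from 0) of 6 genes in each WT (black) and KO (red) library, labelled by animal number, with the mean and SD of the 3 libraries as bars. Abca1, Abcg1 and Nr1h3 are high in K090, L080 and L078, Insig2 is low in these 3, and Srebf1 and Hmgcs1 lie close together in all 6 libraries.

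Libraries K090, L080 and L078 were the 3 highest for 9 of 35 members (Acat2, Mvk, Hsd17b7, Dhcr7, Srebf1, Stard4, Abca1, Abcg1 and Nr1h3). The remaining libraries, L082, K089 and L081, were the 3 highest for 8 others (Pmvk, Idi1, Cyp51, Msmo1, Nsdhl, Insig2, Fnta and Rabggtb). Those 17 members are 48.6% of the list, and 43.4% of all genes tested showed 1 of these orders, a share close to that of the members. It crossed the genotypes, since L078 is a KO library and L082 a WT library. Among libraries whose animal numbers begin with L, the KO levels of Abca1, 159 and 76.4 CPM, stood beside WT levels of 143 and 71.5 CPM, whereas the K animals had 54.2 CPM in KO and 186 CPM in WT. What the letter stands for is not given in the sources used here.

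Marker transcripts of macrophages, the cells from which these osteoclasts are made, moved in the same order. The 8 macrophage markers summed to 6540, 5876 and 3239 CPM in WT and to 3232, 5922 and 3533 CPM in KO. Within that list, Adgre1, which encodes the F4/80 antigen, ran from 64.4 CPM in K089 to 311 CPM in K090, while Csf1r ran from 1723 to 2095 CPM, and 6 of the 8 markers had K090, L080 and L078 as the 3 highest libraries, all but Csf1r and Cd163. The 12 interferon response genes summed to 366, 239 and 131 CPM in WT and to 117, 270 and 152 CPM in KO. The osteoclast marker sums, which Acp5, Ctsk and Mmp9 dominate, ran the other way, with 38320, 50530 and 57772 CPM in WT and 75594, 41826 and 67269 CPM in KO. L082, K089 and L081 were the 3 highest libraries for 8 of the 10 osteoclast markers, all but Calcr and Nfatc1. The 10 proliferation genes summed to 1164, 836 and 867 CPM in WT and to 573, 1125 and 698 CPM in KO. Here K090, L078 and L082 were the 3 highest libraries, with L082 in place of L080. In bulk libraries, fewer cells of a type and less RNA per cell cannot be told apart. The adipocyte markers summed to 7.35, 7.59 and 5.29 CPM in WT and to 1.39, 9.45 and 1.34 CPM in KO. The 9 stromal and osteoblast markers summed to 863, 1290 and 1652 CPM in WT and to 748, 1888 and 681 CPM in KO. Their 3 highest libraries were L078, L082 and L080, which is another order. The part of these differences in the levels of Abca1, Abcg1, Nr1h3 and Insig2 was not tested.

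Abca1 and Srebf1 are established LXR targets, and their promoters are shown because both held a closely alike pair of hexamers, which LXR is known to bind as a repeat spaced by 4 bases. The Abca1 stretch is chr4:53159907-53160002, positions −107 to −12 from the start, and the Srebf1 stretch is chr11:60210598-60210693, positions −222 to −127 from an internal start (both GRCm38.p6, minus strand, from RefSeq). Capitals mark the repeat, which reads on the opposite strand as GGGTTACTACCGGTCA in Abca1 and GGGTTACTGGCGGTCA in Srebf1.
Abca1: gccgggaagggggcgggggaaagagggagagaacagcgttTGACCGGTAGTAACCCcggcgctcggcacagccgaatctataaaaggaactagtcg
Srebf1: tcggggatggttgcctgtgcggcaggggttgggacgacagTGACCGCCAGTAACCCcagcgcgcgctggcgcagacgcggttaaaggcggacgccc
The shared form, GGGTTANNNNCGGTCA, was spelled from these sequences after they were seen, and it was in 3 of 32851 windows, 2 of them these. Each site differs from a perfect AGGTCA repeat at 3 bases, and repeats with up to 3 mismatches were in 11 of 40 member windows and in 21.9% of all windows. The match is a description of the letters. K090, L080 and L078 were the 3 highest libraries for both genes, as for 3041 of all 13483 genes tested. The lowest library was K089 for Abca1 and L082 for Srebf1. The spread differed in size, since Srebf1 ranged from 94.5 to 115 CPM and Abca1 from 54.2 to 186 CPM.

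The other transport and storage genes had a smaller spread. Soat1, which esterifies cholesterol for storage, stayed between 138 and 153 CPM, with a log2 fold change of 0.01 (95% interval −0.14 to 0.16). Stard4, a carrier of cholesterol between membranes, stood at 61.3 ± 10.1 CPM in WT and 57.0 ± 9.58 CPM in KO (SD, n = 3). It followed the library order of Abca1, with 70.0, 63.6 and 50.3 CPM in WT and 49.9, 67.9 and 53.2 CPM in KO, a 1.40-fold spread. Its log2 fold change was −0.10 (95% interval −0.50 to 0.29), and it was −0.25 without L078.

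The protein prenyltransferases, which use the isoprenoids made above, were even across libraries. Of 5 members, 4 had a higher and 1 a lower fitted level in KO, with a median log2 fold change of 0.05, and the highest library was at most 1.29 times the lowest. Fntb, the farnesyltransferase β subunit, was the lower one and the single member whose genotypes did not overlap. Its level was 9.26, 8.97 and 9.02 CPM in WT and 7.19, 8.68 and 7.78 CPM in KO. The WT libraries were tight and L078 again lay nearest to them. The log2 fold change was −0.20 (standard error 0.12, 95% interval −0.48 to 0.08, unadjusted p = 0.128, and 0.969 after Benjamini-Hochberg adjustment of edgeR's quasi-likelihood test). Fntb had 196 or more counts per library and shares 6.45% of its exon bases with Churc1 on the same strand. Its partner Fnta, the α subunit common to farnesyl and geranylgeranyl transfer, had a log2 fold change of 0.05 (95% interval −0.17 to 0.28). Pggt1b, the β subunit for geranylgeranyl transfer, and Rabggta and Rabggtb, the subunits of the enzyme for Rab proteins, had log2 fold changes of 0.01, 0.05 and 0.08.

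Per kilobase of annotated exon, regulators and enzymes both stood near the top of the list. Insig1 had the highest level per length, 73.8 ± 0.441 CPM per kb in WT and 77.98 ± 8.99 in KO (SD, n = 3). Hmgcs1 followed at 64.4 ± 5.51 in WT and 61.2 ± 3.39 in KO, and in both genes the genotypes overlapped. Srebf2 (38.4 ± 2.87 in WT), Mvd (mevalonate diphosphate decarboxylase, 37.0 ± 3.95) and Msmo1 (34.4 ± 1.96) came next, and neighbours among these 3 differed by less than the larger of their SDs. This order depended on the length used, since by the longest annotated transcript Msmo1 had 73.7 CPM per kb over all 6 libraries, above Srebf2 at 55.0, and Mvd had 36.7, below Insig2 at 38.3. Fdps had 25.8 ± 3.34 CPM per kb in WT and 24.7 ± 1.97 in KO. At the lower end were Fntb, with 2.28 ± 0.039 in WT and 1.98 ± 0.188 in KO, and Tm7sf2, with 1.38 ± 0.402 in WT and 1.45 ± 0.073 in KO. Nr1h2 had 18.7 ± 0.866 CPM per kb in WT and Nr1h3 had 6.76 ± 3.35.

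**Figure D4:**
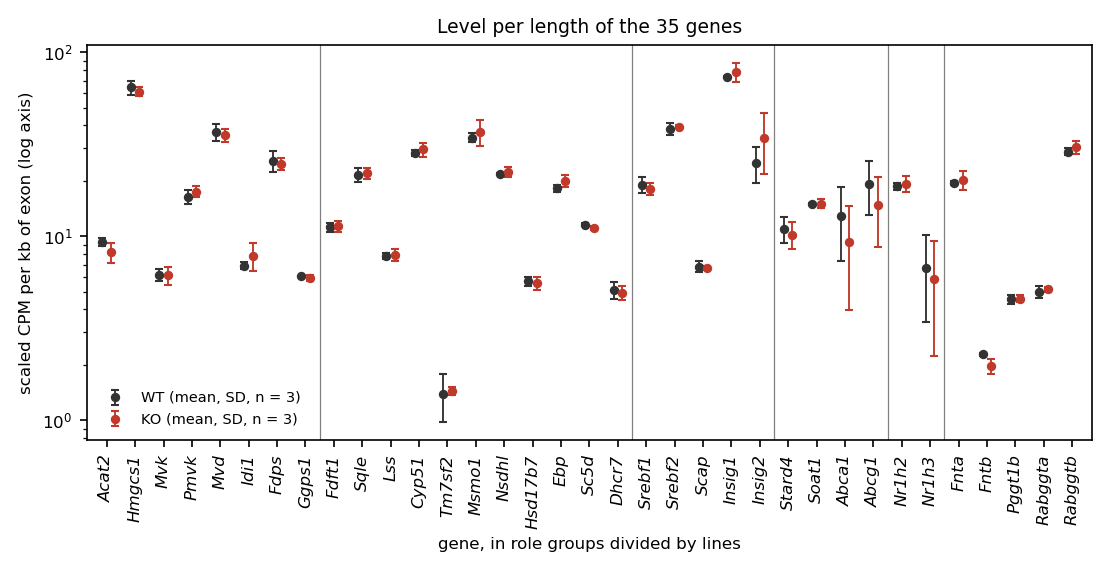
Scaled CPM per kilobase of GENCODE M21 exon (log axis) of the 35 genes, in role groups divided by lines, as the mean and SD of 3 WT (black) and 3 KO (red) libraries. Insig1 and Hmgcs1 are highest and Tm7sf2 and Fntb lowest in both genotypes, and the bars of Abca1, Abcg1, Nr1h3 and Insig2 are long for their level in both genotypes, as is the WT bar of Tm7sf2.

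Neighbouring pathways were covered by 6 further lists, in which Srebf1 is the single member of the 35 and Scd2 is counted in 2 lists. They had 0 genes called, beside 0.00742% of all genes tested. At an unadjusted p below 0.05 in edgeR's quasi-likelihood test they had 0 genes, beside 0.712% of all genes tested. Over all genes tested, 5899 had a higher and 7584 a lower fitted level in KO. In the fatty acid arm of SREBP, 2 of 12 genes had a higher and 10 a lower fitted level in KO, with a median log2 fold change of −0.15. Its smallest p was that of Fasn, fatty acid synthase, with a log2 fold change of −0.16 (unadjusted p = 0.150). Of 10 genes for SREBP processing and sterol-linked degradation, 4 were higher and 6 lower, with a median of −0.01. Of 12 genes of the isoprenoid branches and of prenyl protein processing, 7 were higher and 5 lower, with a median of 0.01. The median range over libraries of those 12 genes was 0.24 on the log2 scale, beside 0.23 for the prenyltransferases.

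Sterol uptake and lysosomal egress held 3 higher and 7 lower genes of 10, with a median of −0.09. Npc1, which moves cholesterol out of lysosomes, had the smallest p, with a log2 fold change of 0.20 (unadjusted p = 0.117). All 8 genes of the list of other LXR targets, which includes Srebf1, had a lower fitted level, with a median of −0.30 beside −0.02 over all genes tested and a range from −0.57 to −0.08. K090, L080 and L078 were the 3 highest libraries for 7 of these 8 genes, as for Abca1 and Abcg1. The same order was seen for 7 of 10 genes of sterol uptake and lysosomal egress, for 7 of 12 genes of the fatty acid arm and for 3041 of all 13483 genes. Scd2, a fatty acid desaturase, had the smallest p of that list, with a log2 fold change of −0.50 (unadjusted p = 0.188). Of 6 enzymes that make or break down oxysterols, 4 were abundant enough to test, 2 higher and 2 lower.

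The count of members at an unadjusted p below 0.05 moved from 0 under 1 alternative, the removal of KO library L078. Without L078, 8 members did so in edgeR's quasi-likelihood test (Idi1, Msmo1, Ebp, Insig1, Insig2, Abca1, Abcg1 and Fnta), where 20.1% of all genes tested did, and the lowest adjusted p of a member was 0.227. Likewise 14 members then had genotypes that did not overlap, where 41.6% of all genes tested did. Slc37a2 was at 32.1 CPM in L078, the lowest of all libraries, and the values without L078 are given as a description.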

How the data were processed

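The authors sequenced the libraries on an Illumina NovaSeq and deposited, for 22601 genes, whole-number counts per library without normalization. The submitters' processing notes name bcl2fastq 2.20.0.422, edgeR 3.30.3 and the mm10 build, which is GRCm38. Which aligner, counter, strand setting and annotation were used is not given in the sources used here. Deposited columns of the authors' own comparison (log2 fold change, mean log2 CPM, likelihood ratio, p-value and FDR) and a list of its top genes were not used, and 0 columns belonged to other samples. Columns were assigned to a genotype by their headings. The labels call the samples biological replicates, and each column carries its own animal number.

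Genotypes were compared on the counts with edgeR 4.0.16 (R 4.3.3, limma 3.58.1), using filterByExpr defaults, TMM factors, glmQLFit and glmQLFTest on the genotype coefficient. P-values were adjusted by Benjamini-Hochberg across 13483 genes, with calls at 0.05. The biological coefficient of variation was 20.8% and the prior degrees of freedom were 2.35. Intervals are 95% intervals from the estimate and its standard error. Levels over libraries (log2, prior count 2) were computed with edgeR, and promoter motifs were searched in Python 3.11.15. Positions and exon lengths are from GENCODE M21. Alternatives were DESeq2 1.42.0, its size factors, upper quartile scaling, other filters, the likelihood ratio test, a term for the letter before the animal number, an added limit of 1.5 on the log2 fold change, other gene lengths and each library left out. The edgeR fit, with its estimates and intervals, was tested on simulated counts.

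The members and the other lists were chosen with earlier results of these data known. Values in every library were given for Slc37a2, Fdps, Srebf1, Srebf2, Abca1, Abcg1, the member of smallest p and of largest difference in each role group, and members whose genotypes did not overlap. Those of Hmgcs1 and Stard4, the pathway genes named by range, the marker genes named singly and the interval limit of 0.5 were chosen after values were seen.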

Additional observations from a re-analysis of the deposited data

How the results depend on the processing

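Of 455 member values under the alternatives, 425 kept their direction, and 0 members were called under any of them. The count of genes called was 2 (Slc37a2 and En2) in place of 1 without a filter, with DESeq2's Wald test and with edgeR's likelihood ratio test. Members whose genotypes did not overlap numbered 2 without a filter, beside 4.48% of all genes tested. With a library left out they numbered 2 to 14, beside 6.91% to 41.6% of all genes tested. Members at an unadjusted p below 0.05 in edgeR's quasi-likelihood test then numbered 0 to 8, beside 0.232% to 20.1% of all genes tested. The 8 and the 14 were found without L078, as were the 20.1% and the 41.6%. Between 25 and 30 members had an interval inside −0.5 to 0.5. The median log2 fold change of the mevalonate and isoprenoid enzymes was −0.055 to 0.022 with a library left out, positive without K089. With a library left out, log2 fold changes that changed sign ran from −0.082 to 0.10 for Mvk, from −0.13 to 0.0100 for Mvd, from −0.14 to 0.028 for Fdps, from −0.036 to 0.016 for Ggps1, from −0.024 to 0.084 for Fdft1, from −0.044 to 0.096 for Sqle, from −0.019 to 0.071 for Lss, from −0.10 to 0.29 for Tm7sf2, from −0.11 to 0.022 for Hsd17b7, from −0.12 to 0.011 for Dhcr7, from −0.040 to 0.031 for Scap, from −0.25 to 0.0036 for Stard4, from −0.84 to 0.20 for Nr1h3 and from −0.015 to 0.070 for Pggt1b. Mvk, at −0.00, was also 0.0099 under upper quartile scaling, 0.015 by the size factors of DESeq2 and 0.017 in DESeq2's test. The cause of these shifts was not tested. No paired analysis was possible because the columns carry animal numbers and no replicate numbers, so no pairing of libraries or replicate block could be set. By the longest transcript in place of all exons, 9 of the 10 members with the highest level per length were again among the highest 10. With 3 libraries per genotype, differences in either direction lay within the intervals of Abca1, Abcg1, Nr1h3 and Insig2. The smallest difference that could be detected in these genes was not computed.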
